A study of Mus musculus with 56 samples.

Results

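Hepatic gene expression was compared between mice given ponatinib 3 mg/kg and mice given L-NAME, 8 against 8, which are 16 of the 56 mice sequenced in 7 groups. Members were chosen by their treatment labels and no measured value was used. All mice were female APOE*3Leiden.CETP mice, which carry human transgenes that give a human-like lipoprotein metabolism. The age on the labels, 9 to 14 weeks, is taken as the age at entry and not at liver sampling. All received a Western-type diet with 15% cacao butter and 0.15% cholesterol. Livers of the ponatinib and vehicle mice were taken after a diet run-in and months of daily gavage, when these mice were older. The ponatinib mice received ponatinib 3 mg/kg once daily by gavage plus a second gavage of the vehicle, 5% carboxymethyl cellulose. The L-NAME mice received vehicle gavage and 0.12 to 0.20% L-NAME in the drinking water, and the 8 vehicle mice received vehicle gavage alone. The labels call L-NAME the reference group. Their account of the randomisation names the vehicle, nilotinib, ponatinib and imatinib groups and not L-NAME, and the duration of L-NAME treatment is not given in the sources used here. Whether the L-NAME mice were randomised, housed or sampled together with the others is likewise not stated, so that effects of L-NAME and of such a difference cannot be told apart.

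Ponatinib is an inhibitor of the BCR-ABL1 tyrosine kinase and of many other kinases, among them the receptors for VEGF, PDGF, FGF and angiopoietin and KIT. L-NAME is an arginine analogue that inhibits the nitric oxide synthases and is widely used to raise blood pressure in rodents. In hepatocytes the enzymes of cholesterol synthesis are switched on together by the transcription factor SREBP2 when the cell is short of sterol, while SREBP1c and ChREBP drive the enzymes of fatty acid synthesis in the fed state. MHC class II molecules present peptides to helper T cells and are made in liver mainly by macrophages, dendritic cells and B cells.

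Genes of sterol and fatty acid synthesis were among those higher with ponatinib than with L-NAME, and MHC class II genes among those lower. Some members of both groups hold the same short promoter element, the Y box (a CCAAT-type motif). The 120 bases before the start of 5 such genes that were called are shown. The Y box, CTGATTGG as written or on the other strand, is in capitals; it begins 65, 50 and 27 bases before the start of Lss, Tm7sf2 and Sc5d, which make sterols, and 51 and 62 bases before the start of H2-Aa and H2-Eb1, the class II chains. The windows lie at chr10:76531485-76531604 on the + strand (Lss), chr19:6067851-6067970 on the - strand (Tm7sf2), chr9:42264301-42264420 on the - strand (Sc5d), chr17:34287824-34287943 on the - strand (H2-Aa) and chr17:34305747-34305866 on the + strand (H2-Eb1) of GRCm38.p6, and the sequences are from RefSeq.
Lss: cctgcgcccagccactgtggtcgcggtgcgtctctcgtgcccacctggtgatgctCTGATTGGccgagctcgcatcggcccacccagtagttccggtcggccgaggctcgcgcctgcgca
Tm7sf2: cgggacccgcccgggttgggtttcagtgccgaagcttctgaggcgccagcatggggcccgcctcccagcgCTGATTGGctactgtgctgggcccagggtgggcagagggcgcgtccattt
Sc5d: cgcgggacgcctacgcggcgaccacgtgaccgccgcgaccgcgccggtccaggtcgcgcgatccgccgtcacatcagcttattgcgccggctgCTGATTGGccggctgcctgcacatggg
H2-Aa: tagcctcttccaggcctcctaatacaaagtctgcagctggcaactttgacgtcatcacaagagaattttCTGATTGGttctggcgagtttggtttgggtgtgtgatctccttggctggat
H2-Eb1: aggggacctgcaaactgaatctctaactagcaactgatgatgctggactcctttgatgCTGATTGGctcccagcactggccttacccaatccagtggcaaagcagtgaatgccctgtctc

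Within 250 bases before the start, the Y box was present in 3.83% of all 32851 mouse promoter windows, in 6 of the 15 cholesterol synthesis genes with a sequence and in 3 of the 8 MHC class II genes with a sequence. It was present in 1 of 14 lipogenic genes and in 0 of 6 genes of SREBP2 control. The share of all windows counts windows, whereas the lists count genes with a match in any window. The 15 and 8 genes had 18 and 9 windows, so the shares are not in like units. Not all genes with a Y box were called. Mvk, Idi1 and Ebp of cholesterol synthesis did not pass (edgeR, ponatinib against L-NAME, adjusted p = 0.587, 0.28 and 0.687). Neither did H2-Oa of MHC class II (0.609) nor the lipogenic Srebf1 (0.272). The sterol response element in the form TCACNCCAC, whose letters do not overlap the Y box, was found in 1.05% of all windows and, on these lists, only in Hmgcs1 and Mlxipl. Both motifs were chosen after the expression results were known, and a match is a description of the letters and not of factor binding.

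The libraries differed in several respects. L-NAME replicate 2 held 97473341 reads on genes, whereas the other L-NAME libraries held 6988328 to 8983406, the ponatinib libraries 6980407 to 15789978 and the vehicle libraries 7696730 to 17996732. The share of reads outside annotated genes was 8.53 ± 0.61% (SD, n = 8) with ponatinib, 11.0 ± 2.5% (n = 8) with L-NAME and 7.97 ± 0.42% (n = 8) with vehicle (exact permutation test, two-sided, ponatinib against L-NAME p = 0.00109). The highest L-NAME value, 16.8%, was that of replicate 2, and without it the L-NAME share was 10.2 ± 0.8% (n = 7, exact permutation p = 0.00218). The 10 most abundant genes took 20.7 ± 0.6% of reads with ponatinib and 18.8 ± 0.8% with L-NAME (exact permutation p = 0.000622), and the share of ambiguous reads was 2.91 ± 0.20% and 2.62 ± 0.31% (exact permutation p = 0.0406, 0.0749 without L-NAME replicate 2). Fold changes also followed exon length: among 12700 protein-coding genes the median log2 fold change, ponatinib against L-NAME, was -0.38 in the 238 genes with up to 1000 bases of exon and 0.05 in the 2261 genes with over 8000. The same medians for L-NAME against vehicle were 0.54 and -0.13, the opposite order. The counts of the main lists are also given with the outside share as a covariate, without L-NAME replicate 2, or with the trend over exon length removed in each library; how far these library properties contribute was not tested.

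**Figure D1:**
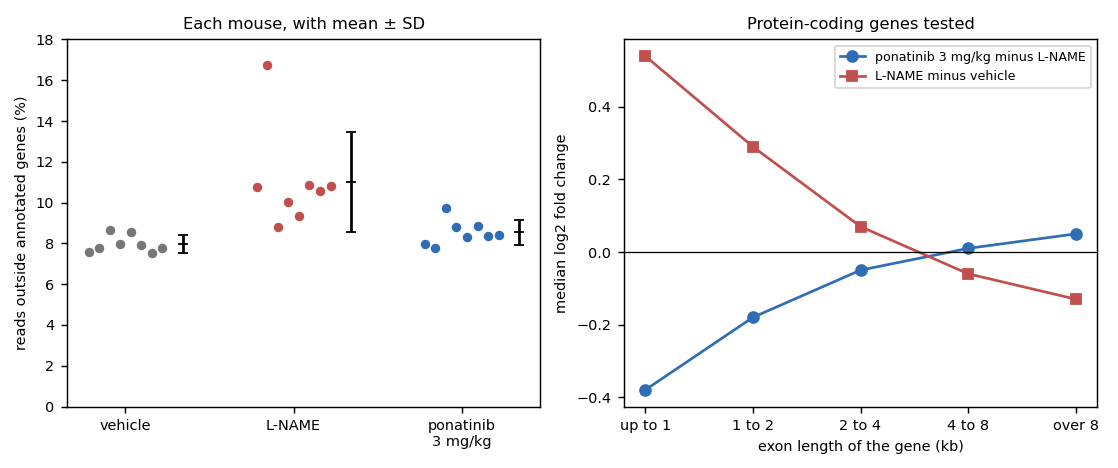
Library properties that moved with the groups. Left, percent of reads outside annotated genes in each vehicle, L-NAME and ponatinib 3 mg/kg mouse, with mean ± SD; L-NAME replicate 2 sits alone at 16.8%. Right, median log2 fold change of protein-coding genes by exon length (kb) for ponatinib minus L-NAME, which climbs from -0.38 to 0.05, and for L-NAME minus vehicle, which descends from 0.54 to -0.13.

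Of 14314 genes tested, 352 (2.46%) were higher and 213 (1.49%) lower with ponatinib 3 mg/kg than with L-NAME at an adjusted p below 0.05 (edgeR quasi-likelihood test). The median size of these differences was 0.59 on the log2 scale, or 1.51-fold. At an unadjusted p below 0.01, the cut-off of the study, 1146 genes (8.01%) differed, where 143 would be reached by chance. With the outside share as a covariate 43 of the 565 genes were still called, 35 higher and 8 lower, and no gene was called that was not among the 565. Without L-NAME replicate 2, 322 genes were called and 320 of them were among the 565; with the length trend removed, 496 were called and 435 were shared. All 43 genes called with the covariate were also called in these other fits, and 13 of them belong to the lists of cholesterol synthesis, SREBP2 control and lipogenesis.

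Most of these differences also held for L-NAME against the vehicle mice. L-NAME differed from vehicle in 795 genes that were higher (5.55% of those tested) and 893 that were lower (6.24%) with L-NAME. Of the 352 genes that were higher with ponatinib, 259 (73.6%) were also higher with vehicle than with L-NAME, and of the 213 lower genes 137 (64.3%) were also lower with vehicle. Together these are 396 of the 565 genes (70.1%), or 23.5% of the 1688 genes called between L-NAME and vehicle, and none of the 565 was called with the vehicle mice on the other side of L-NAME. Both comparisons share the 8 L-NAME mice, so that a deviation of those mice enters both. Between ponatinib and vehicle 0 genes were higher and 6 lower at an adjusted p below 0.05 (edgeR, 14314 tested). The median log2 fold change of the 352 higher genes was 0.56 against L-NAME and 0.01 against vehicle, and that of the 213 lower genes was -0.65 and -0.01. With the covariate, 15 genes held in both comparisons, among them Sdha, Ugt1a5, Ugt1a1, Pklr, Elovl6, Aco1, Acacb, Acly and Fasn, which were higher with ponatinib, and Mprip and Ubb, which were lower.

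**Figure D2:**
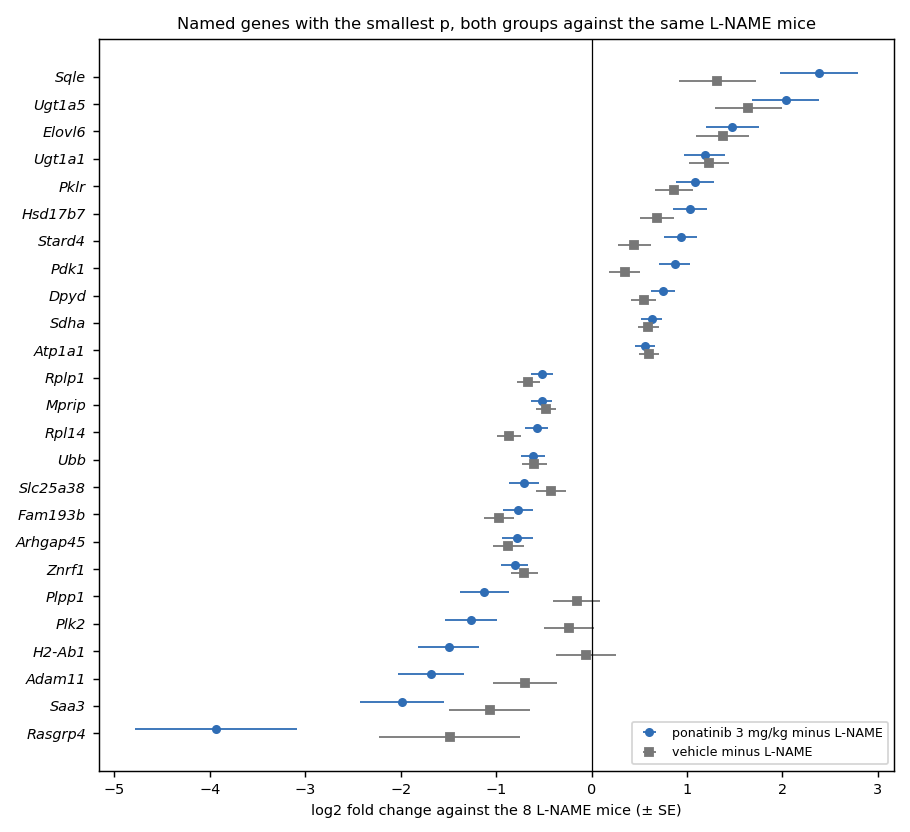
Log2 fold change against the 8 L-NAME mice (x axis, ± SE) of the named genes with the smallest p, for ponatinib 3 mg/kg (blue circles) and for vehicle (grey squares). For Ugt1a1 and Ubb the points nearly coincide, whereas for H2-Ab1, Plk2 and Plpp1 vehicle lies near 0 while ponatinib lies between -1.50 and -1.12.

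Genes of cholesterol synthesis were higher with ponatinib than with L-NAME. Of 20 tested enzymes 15 rose and none fell, where 2.46% of all genes rose, and the median log2 fold change of the list was 0.98, against -0.03 over all genes. The count was 13 without L-NAME replicate 2, 15 with the length trend removed and 4 with the covariate, among them Sqle, Hsd17b7 and Nsdhl. All 20 members had a fold change above 0; Hmgcs1, Mvk, Idi1, Fdft1 and Ebp did not pass the test.

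Sqle, squalene epoxidase, which makes the first oxygenated sterol precursor (chr15:59315077-59331192, GRCm38), showed the largest difference of these enzymes among the called. Its level was 26.0, 37.5 and 136 counts per 1000000 reads on genes (CPM, lowest, median and highest mouse) with ponatinib, 5.40, 10.7 and 15.5 with L-NAME and 8.48, 27.4 and 47.9 with vehicle. Every ponatinib mouse was above every L-NAME mouse, while the vehicle mice overlapped both groups. The difference from L-NAME was 2.38 ± 0.41 (log2, SE), or 5.22-fold (adjusted p = 0.000626), and vehicle was also higher than L-NAME (L-NAME against vehicle -1.32, adjusted p = 0.0216). Ponatinib against vehicle was 1.07 (edgeR, unadjusted p = 0.0079, adjusted p = 0.3) and was not called.

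Hsd17b7, the 3-ketosteroid reductase of the pathway, ranged from 47.8 to 97.6 CPM with ponatinib, from 21.6 to 41.0 with L-NAME and from 38.7 to 66.3 with vehicle. Ponatinib and L-NAME mice did not overlap (1.03 ± 0.18, adjusted p = 0.000626), and vehicle was also higher than L-NAME (L-NAME against vehicle -0.68, adjusted p = 0.00618). Nsdhl, which removes the C4 carboxyl group of the sterol, ranged from 29.6 to 72.8 CPM with ponatinib, from 13.0 to 34.4 with L-NAME and from 25.7 to 46.3 with vehicle, and 7 ponatinib mice were above all L-NAME mice (1.27 ± 0.25, adjusted p = 0.00239; L-NAME against vehicle -0.70, adjusted p = 0.0517).

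Among the other enzymes that rose were Acat2, Pmvk, Mvd, Fdps, Lss, Cyp51, Tm7sf2, Msmo1, Sc5d and Dhcr7, with log2 fold changes of 0.63 (Sc5d) to 1.43 (Mvd). Of the 15, 4 were also called between L-NAME and vehicle, among them Sqle and Hsd17b7, and with the covariate none was (edgeR, adjusted p = 0.175 and 0.215 for these genes). For the other 11 the vehicle median lay between the medians of L-NAME and ponatinib: Tm7sf2, a sterol C14 reductase, had medians of 139 CPM with ponatinib, 86.6 with L-NAME and 88.0 with vehicle, and Msmo1, the C4 methyl oxidase, 93.8, 51.1 and 61.1. Against vehicle, 5 of the 20 were higher with ponatinib at an unadjusted p below 0.01 (Sqle, Pmvk, Fdft1, Tm7sf2 and Msmo1). At that cut-off 1.4% of all genes were higher and 1.73% lower. None of the 20 passed an adjusted p of 0.05 against vehicle, and the median of the list was 0.50. Single libraries decided 3 of the 15 calls. Fdps was not called without L-NAME replicate 4 (adjusted p = 0.0526). Acat2 was not called without L-NAME replicate 2, 6 or 7 or ponatinib replicate 6 or 7 (adjusted p up to 0.0659), and Tm7sf2 not without L-NAME replicate 2, 3, 4, 6 or 7 or ponatinib replicate 1, 2, 4 or 6 (up to 0.0661).

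**Figure D3:**
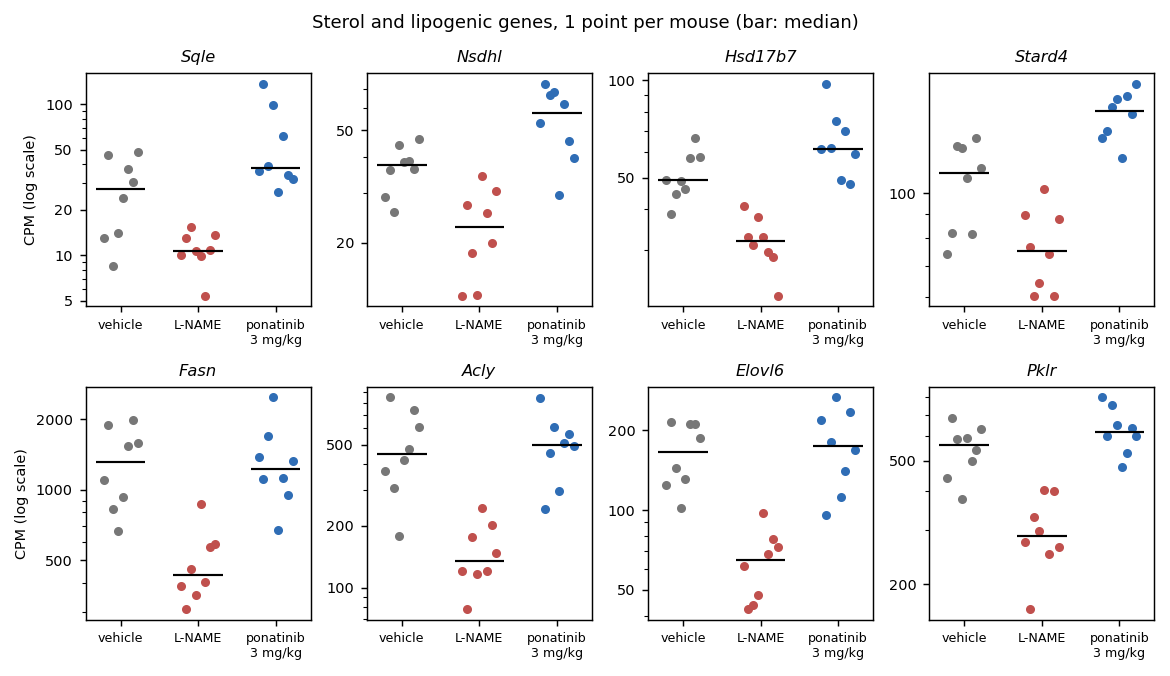
CPM (log axis) of 4 sterol genes (top) and 4 lipogenic genes (bottom) in each vehicle, L-NAME and ponatinib 3 mg/kg mouse, with the median as a bar. For Sqle, Hsd17b7 and Pklr every ponatinib mouse is above every L-NAME mouse, and for Fasn, Acly and Elovl6 the vehicle and ponatinib mice overlap widely.

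Of 10 tested genes that control SREBP2 and the handling of sterol in the cell, 6 rose, among them Stard4, Srebf2, Insig1 and Npc1, and none fell in edgeR, where 2.46% of all genes rose; limma voom with sample weights called 7 higher and 1 lower, and 3 rose with the covariate. Stard4, a carrier of cholesterol inside the cell, ranged from 119 to 171 CPM with ponatinib and from 60.4 to 102 with L-NAME, without overlap, and from 74.0 to 131 with vehicle (0.93 ± 0.17, adjusted p = 0.00154). Npc1, which exports cholesterol from lysosomes, had medians of 267 CPM with ponatinib, 172 with L-NAME and 247 with vehicle, and 6 ponatinib mice were above all L-NAME mice (0.59 ± 0.14, adjusted p = 0.00954). Srebf2, which encodes SREBP2, had medians of 65.4, 42.6 and 65.4 CPM (0.61 ± 0.15, adjusted p = 0.0144). Srebf2 and Npc1 were also called between L-NAME and vehicle, with vehicle higher, while Stard4 and Insig1 were not (adjusted p = 0.0822 and 0.0531). Insig1, which holds the SREBP complex in the endoplasmic reticulum, lost its call without ponatinib replicate 4 or L-NAME replicate 4 or 6 (adjusted p up to 0.063).

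Of 17 tested lipogenic genes, 10 rose and none fell with ponatinib in edgeR, where 2.46% of all genes rose, while limma voom with sample weights called 14 higher and 1 lower. The edgeR count was 10 to 11 without any single library, 10 with the length trend removed and 6 with the covariate (Pklr, Elovl6, Acacb, Acly, Fasn and Me1). Of these 10 genes, 9 were also higher with vehicle than with L-NAME; Fads1, a fatty acid desaturase, was not called there (L-NAME against vehicle -0.23, adjusted p = 0.423). The median log2 fold change of the list was 1.02 against L-NAME, -0.78 for L-NAME against vehicle and 0.18 for ponatinib against vehicle, where no member passed an unadjusted p of 0.01 and 2 of 17 had one below 0.05 (edgeR).

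Fasn, fatty acid synthase, ranged from 672 to 2492 CPM with ponatinib (median 1226), from 309 to 866 with L-NAME (median 431) and from 668 to 1986 with vehicle (median 1321). The ponatinib and vehicle mice covered nearly one range, and 7 ponatinib mice were above every L-NAME mouse (1.45 ± 0.31, 2.73-fold, adjusted p = 0.00522; ponatinib against vehicle 0.03, unadjusted p = 0.92). Acly, which supplies acetyl-CoA, had medians of 500, 135 and 449 CPM with ponatinib, L-NAME and vehicle (1.73 ± 0.37, adjusted p = 0.00471). Pklr, the liver pyruvate kinase, ranged from 476 to 800 CPM with ponatinib and from 166 to 402 with L-NAME, without overlap (1.08 ± 0.20, adjusted p = 0.00149). Elovl6, which elongates C16 fatty acids, had medians of 175, 64.7 and 166 CPM (1.47 ± 0.28, adjusted p = 0.00155). Scd1, the stearoyl-CoA desaturase, ranged from 16220 to 31900 CPM with ponatinib and from 6536 to 16030 with L-NAME, again without overlap (0.85 ± 0.19, adjusted p = 0.00675). Gpam, the first enzyme of glycerolipid synthesis, also separated the groups completely, at 54.0 to 191 CPM against 23.7 to 51.4 (1.49 ± 0.33, adjusted p = 0.00675). The transcription factors of the list did not pass: Srebf1 had a log2 fold change of 0.35 and Mlxipl, which encodes ChREBP, of -0.42.

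Other genes of hepatocyte metabolism were higher with ponatinib as well. Acss2, acetyl-CoA synthetase, ranged from 307 to 755 CPM with ponatinib and from 102 to 282 with L-NAME (1.44 ± 0.31, adjusted p = 0.00567), and Lpin1, a phosphatidate phosphatase, from 77.3 to 131 and from 39.9 to 69.7 (1.07 ± 0.21, adjusted p = 0.00226); neither overlapped, and both were called with the covariate. Of 17 genes of gluconeogenesis and insulin response 4 rose and none fell, where 2.46% of all genes rose. These were Tat (tyrosine aminotransferase, 0.81), Fbp1 (fructose bisphosphatase, 0.48), Slc2a2 (the liver glucose transporter, 0.53) and Pygl (glycogen phosphorylase, 0.58). All 4 were also higher with vehicle than with L-NAME, 3 were called without L-NAME replicate 2 and none with the covariate. Pygl lost its call without L-NAME replicate 2 or 6 or ponatinib replicate 1 or 7 (adjusted p up to 0.0845). Pdk1, a kinase that inhibits pyruvate dehydrogenase, rose by 0.87 ± 0.16 (medians of 244 CPM with ponatinib, 125 with L-NAME and 178 with vehicle, adjusted p = 0.00149) and was not called between L-NAME and vehicle (-0.35, adjusted p = 0.162). Dpyd, which degrades pyrimidines, had the smallest p of all: 590 to 932 CPM with ponatinib against 351 to 516 with L-NAME, 0.75 ± 0.13 (adjusted p = 0.000626), with vehicle at a median of 604.

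Ugt1a1, the bilirubin glucuronosyltransferase, ranged from 205 to 364 CPM with ponatinib, from 81.5 to 195 with L-NAME and from 189 to 364 with vehicle. Ponatinib and vehicle mice shared a range, and ponatinib and L-NAME mice did not overlap (1.19 ± 0.21, adjusted p = 0.000917; ponatinib against vehicle -0.05). Ugt1a5 from the same locus rose by 2.03 ± 0.35 (adjusted p = 0.000626), but the Ugt1a genes share their last exons, so that reads may not be assigned to 1 of them with certainty. Of 25 targets of the xenobiotic receptors CAR and PXR, Ugt1a1 alone was called in edgeR, a share close to the 2.46% of all genes that rose; DESeq2 called 1 higher and 1 lower, and limma voom with sample weights 1 higher and 2 lower.

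The hepatocyte markers themselves were partly higher with ponatinib. Of 7 tested markers 4 rose (Alb, Hnf4a, Cps1 and Tat), where 2.46% of all genes rose, and 3 lay near 0 (Ttr -0.02, Asgr1 -0.15, Asgr2 -0.04). The summed level of the list was 107894 to 131663 CPM with ponatinib, 71256 to 101842 with L-NAME and 69802 to 124348 with vehicle. Alb, albumin, makes up most of that sum; all ponatinib mice were above all L-NAME mice (0.54 ± 0.13, adjusted p = 0.0105), and vehicle was not called against L-NAME (adjusted p = 0.264). Without L-NAME replicate 2 the count was 2, and none of the 4 was called with the covariate. Hnf4a was not called without any of 6 libraries (L-NAME replicates 1, 2, 6 and 7 and ponatinib replicates 1 and 2; adjusted p up to 0.079). In whole liver, fewer cells of a type and less RNA per cell cannot be told apart, which holds for every cell type result here.

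MHC class II genes were lower with ponatinib than with L-NAME, and here the vehicle mice did not stand with ponatinib. Of 11 tested members 4 fell (H2-Ab1, H2-Aa, H2-Eb1 and Cd74), where 1.49% of all genes fell, and no member had a fold change above 0. The median of the list was -1.14 against L-NAME, 0.06 for L-NAME against vehicle and -1.01 for ponatinib against vehicle. In ponatinib against vehicle 5 members passed an unadjusted p of 0.01, all lower, where 1.73% of all genes were lower. The same 4 genes were called without each of the 24 libraries in turn and with the length trend removed, and 1, H2-Ab1, with the covariate.

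H2-Ab1, the beta chain of the I-A molecule (chr17:34257689-34269419), ranged from 19.7 to 57.4 CPM with ponatinib (median 33.5), from 52.8 to 148 with L-NAME (median 106) and from 40.7 to 157 with vehicle (median 97.3). Of the 8 ponatinib mice 6 were below every L-NAME mouse, and vehicle and L-NAME mice shared a range. The log2 fold change was -1.50 ± 0.32 (2.83-fold lower, adjusted p = 0.00522), and L-NAME against vehicle was 0.06 (adjusted p = 0.947). Ponatinib against vehicle was -1.44 (edgeR, unadjusted p = 3.2e-05, adjusted p = 0.063) and was not called. Its partner H2-Aa had medians of 42.5, 126 and 119 CPM with ponatinib, L-NAME and vehicle (-1.35 ± 0.33, adjusted p = 0.0125), and H2-Eb1, of the I-E molecule, 37.4, 98.9 and 104 (-1.42 ± 0.33, adjusted p = 0.00819). Cd74, the invariant chain that guards the peptide groove, had medians of 108, 258 and 249 CPM (-1.12 ± 0.30, adjusted p = 0.0193). Ponatinib replicate 5 was the highest ponatinib mouse for H2-Aa, H2-Eb1 and Cd74. Ciita, the class II transactivator, was at 1.18 to 4.10 CPM with ponatinib and 2.16 to 12.1 with L-NAME (-1.33 ± 0.49, adjusted p = 0.112) and did not pass. Between L-NAME and vehicle only H2-Ob, a chain of a class II chaperone, was called on this list (1.57, adjusted p = 0.028).

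**Figure D4:**
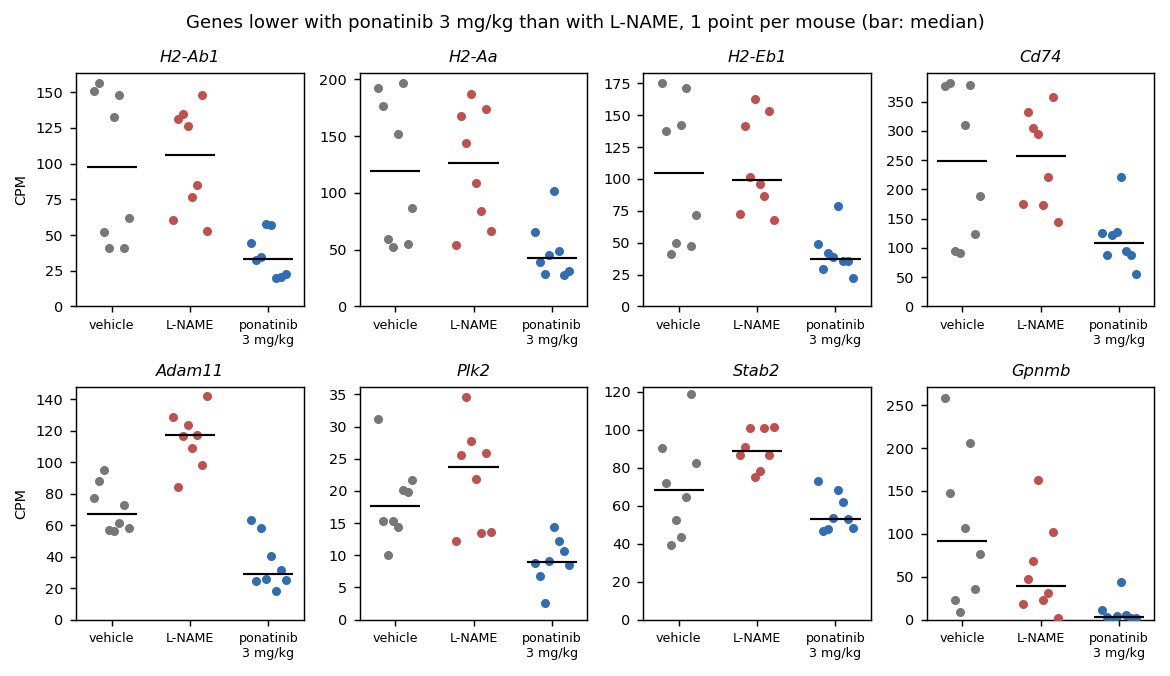
CPM (linear axis from 0) of 8 genes that were lower with ponatinib 3 mg/kg than with L-NAME, 1 point per mouse and the median as a bar. For H2-Ab1, H2-Aa, H2-Eb1 and Cd74 vehicle and L-NAME mice cover one range and ponatinib mice lie at its bottom; for Adam11 and Stab2 ponatinib and L-NAME mice do not overlap, and in the Gpnmb panel ponatinib replicate 5 stands above the other ponatinib mice.

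Of 14 markers of recruited monocytes and macrophages 2 fell, Gpnmb and Ccr2, where 1.49% of all genes fell. On this list 1 member was above 0 and the median was -0.59. The summed level of the list was 228 to 570 CPM with ponatinib, 276 to 1061 with L-NAME and 285 to 992 with vehicle. Gpnmb, a glycoprotein of lipid-laden macrophages, ranged from 0 to 44.4 CPM with ponatinib (median 3.37), from 1.63 to 162 with L-NAME (median 39.3) and from 8.79 to 259 with vehicle (median 91.7). Its log2 fold change was -2.66 ± 0.71 (adjusted p = 0.0203), which was 0.0672 without L-NAME replicate 4. Gpnmb and Cdkn1a, the p21 inhibitor of cell cycle kinases, were the 2 of the 565 genes called against vehicle and not between L-NAME and vehicle. Cdkn1a had medians of 1.81, 6.29 and 9.35 CPM with ponatinib, L-NAME and vehicle (-1.91 ± 0.55, adjusted p = 0.0338) and lost its call against L-NAME without L-NAME replicate 2, 3 or 4 or ponatinib replicate 3, 4, 6, 7 or 8 (adjusted p up to 0.0994). Ccr2, the monocyte chemokine receptor, differed by -1.37 ± 0.42 (log2, adjusted p = 0.0488) and was not called without 16 of the 24 libraries, namely ponatinib replicates 1, 2, 3, 4, 5, 7 and 8, L-NAME replicates 2, 3, 4, 6 and 7 and vehicle replicates 2, 5, 6 and 8 (adjusted p up to 0.132). Neither Gpnmb nor Ccr2 was called with the covariate. The 10 Kupffer cell markers gave no call in edgeR, DESeq2 or limma voom with sample weights, and 0 had an unadjusted p below 0.05; their summed levels were 727 to 1965 CPM with ponatinib and 889 to 2112 with L-NAME. How far a change in these cells contributes to the class II result was not tested.

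Of 14 sinusoidal endothelial markers 3 fell (Stab2, Clec4g and Stab1), where 1.49% of all genes fell, none had a fold change above 0, and the median was -0.62. Their summed level was 263 to 568 CPM with ponatinib, 494 to 840 with L-NAME and 289 to 902 with vehicle. Stab2, a scavenger receptor for hyaluronan, ranged from 46.6 to 72.7 CPM with ponatinib and from 75.0 to 102 with L-NAME, without overlap, and from 39.1 to 119 with vehicle, which overlapped both (-0.67 ± 0.17, adjusted p = 0.0119). Clec4g, a lectin of these cells, had medians of 32.0, 64.7 and 43.1 CPM with ponatinib, L-NAME and vehicle (-0.98 ± 0.24, adjusted p = 0.0136). Stab1, a related scavenger receptor, differed by -0.62 ± 0.19 (log2, adjusted p = 0.0461) and was not called without 14 of the 24 libraries, namely ponatinib replicates 1, 2, 4, 5, 7 and 8, L-NAME replicates 1, 2, 4, 6, 7 and 8 and vehicle replicates 6 and 8 (adjusted p up to 0.0984). None of the 14 was called between L-NAME and vehicle (edgeR, 1 at an unadjusted p below 0.05), and none in ponatinib against L-NAME with the covariate.

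Ponatinib's own targets gave no call: 0 of 21 tested target kinases passed an adjusted p of 0.05 in edgeR or DESeq2, and 6 had an unadjusted p below 0.05 in edgeR. With limma voom and sample weights 4 were called, all lower. In edgeR 4 had an unadjusted p below 0.01, all lower, where 3.34% of all genes were lower at that cut-off. These were the vascular receptors Kdr (-0.71 ± 0.27, adjusted p = 0.124), Flt4 (-0.67 ± 0.24, adjusted p = 0.108) and Tek (-0.87 ± 0.32, adjusted p = 0.112), which encode VEGF receptors and the angiopoietin receptor, and Kit (-0.84 ± 0.29, adjusted p = 0.0935). Kdr ranged from 6.25 to 38.5 CPM with ponatinib, from 28.6 to 56.1 with L-NAME and from 21.1 to 82.6 with vehicle, and the groups overlapped. Abl1 itself had medians of 50.8, 41.4 and 49.7 CPM (0.17 ± 0.14, adjusted p = 0.57).

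Genes of nitric oxide and arginine handling were examined because L-NAME acts there. Of 24 tested, 2 rose with ponatinib and none fell in edgeR, where 2.46% of all genes rose, and the median was -0.02. DESeq2 called 2 higher and 1 lower, and limma voom with sample weights 4 higher and 5 lower. In edgeR neither of the 2 was called with the covariate or without L-NAME replicate 2. Cps1, the first enzyme of the urea cycle, ranged from 2744 to 4522 CPM with ponatinib, from 981 to 2905 with L-NAME and from 2527 to 5025 with vehicle, and 6 ponatinib mice were above all L-NAME mice (0.80 ± 0.22, adjusted p = 0.0218; 0.0684 without L-NAME replicate 2 and 0.053 without ponatinib replicate 1). Slc7a2, a cationic amino acid transporter that takes up arginine, had medians of 700, 403 and 607 CPM (0.65 ± 0.18, adjusted p = 0.0244; 0.0692 without L-NAME replicate 2, 0.0598 without ponatinib replicate 7 and 0.0501 without L-NAME replicate 8). Both were also called between L-NAME and vehicle, with vehicle higher. Nos3, the endothelial nitric oxide synthase, ranged from 1.73 to 6.75 CPM with ponatinib, from 2.43 to 10.5 with L-NAME and from 1.62 to 6.60 with vehicle, and the groups overlapped (-1.18 ± 0.38, adjusted p = 0.0651). Nos1 and Nos2 did not pass the filter on low counts. Arg1, arginase, gave 0.34 ± 0.12 (adjusted p = 0.105), and the soluble guanylate cyclase genes Gucy1a1 and Gucy1b1 gave -0.25 ± 0.30 (adjusted p = 0.73) and -0.60 ± 0.28 (adjusted p = 0.245).

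Of 7 tested genes of the renin-angiotensin system 1 rose, where 2.46% of all genes rose. Enpep, aminopeptidase A, which degrades angiotensin II, ranged from 107 to 195 CPM with ponatinib, from 66.6 to 104 with L-NAME and from 112 to 181 with vehicle, so that ponatinib and vehicle mice were all above the L-NAME mice (0.72 ± 0.19, adjusted p = 0.0175). The adjusted p was 0.0513 without ponatinib replicate 1 and 0.17 with the covariate. Agt, angiotensinogen, had medians of 948, 975 and 774 CPM (-0.05 ± 0.10, adjusted p = 0.873), and Agtr1a, the main angiotensin II receptor, gave 0.34 ± 0.15 (adjusted p = 0.229). Among 39 coagulation and fibrinolysis genes 2 rose and none fell in edgeR, where 2.46% of all genes rose, and limma voom with sample weights called 8 higher and 1 lower. A count of 2 lies near that background. F5, clotting factor V, ranged from 482 to 595 CPM with ponatinib and from 289 to 458 with L-NAME without overlap (0.48 ± 0.10, adjusted p = 0.00476) and was also higher with vehicle (L-NAME against vehicle -0.44, adjusted p = 0.00242), and Proz, protein Z, gave 0.47 ± 0.12 (adjusted p = 0.0177). Neither was called with the covariate.

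Of 78 cytosolic ribosomal protein genes 15 fell and none rose with ponatinib (median -0.40), where 1.49% of all genes fell. Between L-NAME and vehicle 33 were higher with L-NAME, where 5.55% of all genes were. The 33 became 23 with the length trend removed and 17 with the covariate. The 15 became 8 without L-NAME replicate 2, 5 with the length trend removed and 0 with the covariate, and ranged from 5 to 20 over the 24 libraries left out. Rpl14 ranged from 69.0 to 86.5 CPM with ponatinib, from 97.0 to 149 with L-NAME and from 50.5 to 71.1 with vehicle, so that ponatinib and L-NAME mice did not overlap (-0.58 ± 0.12, adjusted p = 0.00572). Ribosomal protein genes have many near-identical pseudogenes, between which reads may be split.

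Of 36 complex I genes, Ndufs1 rose while Ndufa2 and Ndufb2 fell, and of 39 genes of complexes II to V, Sdha, Atp5a1 and Atp5b rose while Uqcrh, Cox7a2 and Atp5e fell. Among all genes 2.46% rose and 1.49% fell, and the 1 of 36 that rose lies near that background. Between L-NAME and vehicle 21 of the 36 and 24 of the 39 were higher with L-NAME, where 5.55% of all genes were, and 2 and 2 with the covariate. Sdha, the flavoprotein of succinate dehydrogenase, ranged from 561 to 696 CPM with ponatinib, from 305 to 479 with L-NAME and from 541 to 674 with vehicle, without overlap of L-NAME with either group (0.63 ± 0.11, adjusted p = 0.000626), and it was the only gene of the 2 lists called with the covariate. Atp5e, a small subunit of ATP synthase, gave -0.63 ± 0.15 (adjusted p = 0.0123; 0.32 with the covariate), and Atp5b, its catalytic beta chain, 0.39 ± 0.08 (adjusted p = 0.00601; 0.11 with the covariate). Atp5a1 was not called without L-NAME replicate 2 (adjusted p = 0.0587). Ndufa2 was not called without ponatinib replicate 1 or 5 or L-NAME replicate 2 or 8 (adjusted p up to 0.0804), and Ndufb2 not without ponatinib replicate 1, 4, 5 or 7 or L-NAME replicate 1, 2, 6 or 8 (up to 0.0889). Uqcrh was not called without ponatinib replicate 1, 3, 5 or 6 or L-NAME replicate 1, 2, 6 or 8 (up to 0.123), and Cox7a2 not without ponatinib replicate 1 or 3 or L-NAME replicate 1, 2, 6, 7 or 8 (up to 0.0847). Ndufs1 was not called without ponatinib replicate 1, 4, 6 or 7 or L-NAME replicate 2, 4, 5, 6, 7 or 8 (up to 0.12).

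Apolipoproteins also differed by member. Of 19 tested genes of apolipoproteins and lipases 2 rose and 4 fell, where 2.46% of all genes rose and 1.49% fell. Mttp and Apob, which assemble and carry VLDL, rose, and the small apolipoproteins Apoc1, Apoc2, Apoc3 and Apoc4 fell, all 6 of them also called between L-NAME and vehicle with vehicle on the ponatinib side. Mttp, the triglyceride transfer protein, ranged from 278 to 377 CPM with ponatinib and from 180 to 268 with L-NAME, without overlap (0.52 ± 0.12, adjusted p = 0.00819). Apoc1 ranged from 1214 to 1904 and from 1751 to 4419 CPM (-0.70 ± 0.16, adjusted p = 0.0084), and the highest L-NAME mouse was replicate 8. With the length trend removed Mttp rose and Apoc1 and Apoc4 fell, and with the covariate none of the 6 was called. Apoc2 was not called without ponatinib replicate 1 or 3 or L-NAME replicate 2 or 8 (adjusted p up to 0.115). Apob was not called without ponatinib replicate 1, 2, 5, 7 or 8 or L-NAME replicate 1, 2, 4, 6, 7 or 8 (up to 0.101), and Apoc3 not without ponatinib replicate 1 to 6, L-NAME replicate 1, 2, 6, 7 or 8 or vehicle replicate 8 (up to 0.123).

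**Figure D5:**
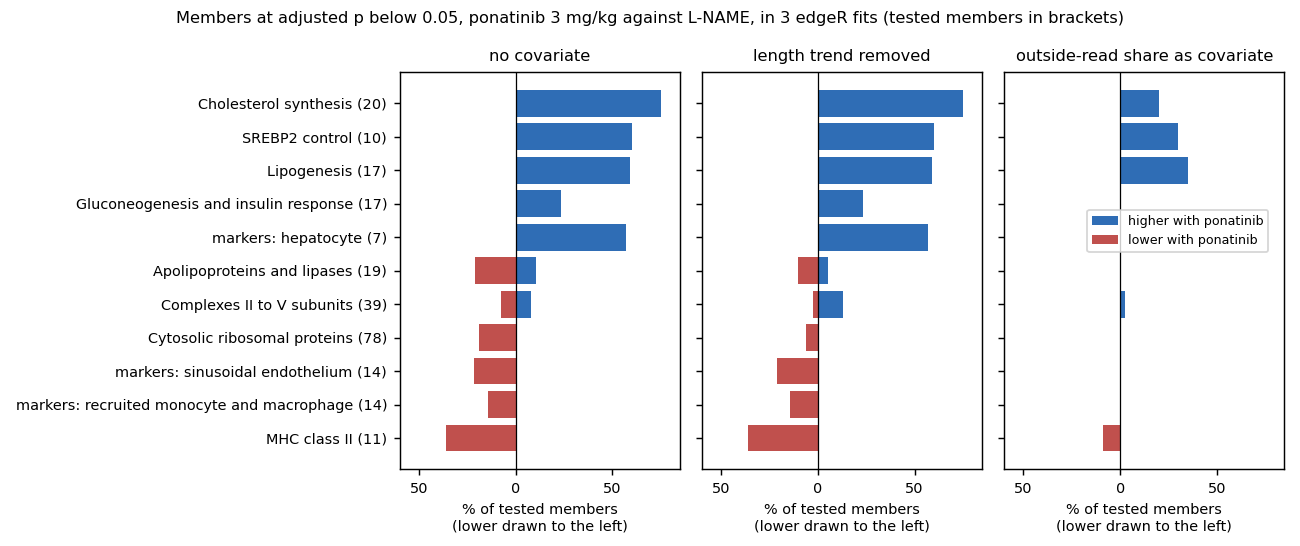
Percent of tested members of 11 gene lists called at an adjusted p below 0.05, higher with ponatinib 3 mg/kg than with L-NAME to the right and lower to the left, in 3 edgeR fits. The sterol and lipogenic lists keep bars to the right in each fit, from 15 to 4 of 20 for cholesterol synthesis, whereas ribosomal proteins go from 15 of 78 to 5 and 0.

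Among single genes that fell, Adam11, a catalytically inactive member of the ADAM family, had its median lowest with ponatinib and highest with L-NAME, with vehicle between. It ranged from 18.2 to 63.3 CPM with ponatinib, from 56.5 to 95.2 with vehicle and from 83.9 to 142 with L-NAME, without overlap of ponatinib and L-NAME (-1.68 ± 0.34, 3.20-fold lower, adjusted p = 0.00354; L-NAME against vehicle 0.70, adjusted p = 0.183). Saa3, an acute-phase serum amyloid A, ranged from 3.23 to 14.7 CPM with ponatinib, from 20.7 to 59.4 with L-NAME and from 8.80 to 29.6 with vehicle (-1.99 ± 0.44, 3.97-fold lower, adjusted p = 0.00665). Of 24 tested acute-phase genes Saa3 alone fell and 1 rose in edgeR, where 1.49% of all genes fell and 2.46% rose. The median of that list was 0.1. Plk2, a polo-like kinase, had medians of 8.94, 23.7 and 17.6 CPM with ponatinib, L-NAME and vehicle (-1.26 ± 0.27, adjusted p = 0.00531) and was not called between L-NAME and vehicle. Znrf1, a ubiquitin ligase, ranged from 24.6 to 47.3 CPM with ponatinib, from 56.8 to 82.0 with L-NAME and from 32.2 to 52.1 with vehicle, so that L-NAME stood apart from both (-0.81 ± 0.14, adjusted p = 0.000626; L-NAME against vehicle 0.70, adjusted p = 0.000448). Ubb, which encodes polyubiquitin, followed at 67.1 to 94.8, 111 to 142 and 61.5 to 109 CPM (-0.61 ± 0.13, adjusted p = 0.00354). All 5 were called with the covariate.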

How the data were processed

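Liver RNA of 56 mice in 7 groups of 8 was sequenced after poly(A) selection (NEBNext Ultra, NextSeq 500). The authors deposited raw counts of reads per gene for each mouse; per the submitters' processing notes reads were aligned to GRCm38 with TopHat2 2.0.14 and Bowtie2 2.1.0, handled with SAMtools 0.1.18 and counted with HTSeq 0.6.1p1. The files list 45513 genes, of which 44671 matched a GENCODE M21 symbol. Summary rows (reads outside genes, ambiguous or not uniquely aligned) were left out of library sizes and of the counts tested. They were used only for the shares of reads outside annotated genes and of ambiguous reads.

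The main test was edgeR 4.0.16 (R 4.3.3), quasi-likelihood, TMM, with filterByExpr by group and all 56 mice in 1 fit, which left 14314 genes; SE was the log2 fold change divided by the root of F. Calls are at a Benjamini-Hochberg adjusted p below 0.05 over all genes, beside the unadjusted p below 0.01 of the study. The vehicle mice entered through L-NAME against vehicle and ponatinib against vehicle. The fits were tested on simulated data. Counts were drawn with edgeR's own estimates of the spread, so the simulation cannot rank edgeR against the other fits. There limma voom without weights called many unchanged genes of low count, so its counts are not relied on. Alternatives used DESeq2 1.42.0, limma 3.58.1 and those given in the closing section. The covariate fit (the share of reads outside genes) without L-NAME replicate 2, the removal of the exon-length trend and the thinning of L-NAME replicate 2 were chosen after seeing the data. The treatments, the 51 gene lists (14 of them cell markers) and the tests were chosen with earlier results of these data known. Named genes were the 15 smallest p in each direction among the called, list members at an unadjusted p below 0.01, up to 15 genes past the cut-off in both comparisons, and all tested genes of the nitric oxide, renin-angiotensin and target kinase lists; genes outside this rule, such as Acss2, Lpin1, Srebf1, Mlxipl and H2-Ob, were chosen after their values were seen. Replicate numbers follow accession order and pair nothing. No 2 libraries of a group agreed within sampling noise. The labels name no batch and do not say whether mice of a group were housed apart, so p-values measure the spread between these mice. CPM are counts divided by the TMM-scaled library size; shares of libraries were compared by exact permutation tests. Prmt1, Klkb1, Hjv and Tf of the lists matched no symbol and were not analysed here. Some genes that the rule names are not reported here, but counts over lists include them.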

Additional observations from a re-analysis of the deposited data

Results flagged for a closer look

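In groups of 8 mice, a value was marked where the gap between the highest or lowest mouse and its nearest neighbour took more of the group's range than Dixon's critical value at 95% allows. Of 443 groups tested 33 were marked, where 22 would be by chance at 1 in 20, 3 for libraries and 30 for genes. For the libraries these were the reads on genes of ponatinib replicate 2 (15789978) and L-NAME replicate 2 (97473341), and the 16.75% of reads outside annotated genes in L-NAME replicate 2.

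Among sterol and lipid genes, Thrsp, a lipogenic regulator, was at 913.2 CPM in ponatinib replicate 4, Msmo1 at 192 in ponatinib replicate 2, and Acat2 at 39.13, the lowest, in ponatinib replicate 5. In L-NAME replicate 1, Dgat2 was at 977.7 CPM, and in L-NAME replicate 8, Apoc1 was at 4419 and Apoc2 at 369.1. The same L-NAME replicate 8 stood apart for the ribosomal genes Rplp1 (386), Rps15 (251.7) and Rps27l (158.4).

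Ponatinib replicate 5 was the highest ponatinib mouse for H2-Eb1 (78.8 CPM) and Cd74 (221.1), and for the macrophage genes Gpnmb (44.39), Mmp12 (38.32) and Lgals3 (64.36), as well as for Nos3 (6.746), and the lowest for Rpl34 (16.73). Ponatinib replicate 2 stood apart for Fga (14480), Cyp3a25 (257.9), Serpina3m (595.3) and Cxcl2 (0.5558), ponatinib replicate 1 for Dpyd (932.2), F13b (305.1) and Fgfr4 (79.35), ponatinib replicate 4 for Rps10 (11.78) and Arg2 (2.217), and ponatinib replicate 6 for Flt4 (24.31) and Ddah2 (9.963). L-NAME replicate 2 stood apart for Ubb (142.1), and L-NAME replicate 3 for Arhgap45 (24.25) and Masp1 (36.87).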

How the results depend on the processing

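Of the 565 genes called between ponatinib and L-NAME, none changed its direction under the alternatives without a covariate, and 1 did with the covariate. Their number was 1056 with limma voom, 1801 with sample weights, 1062 with only the 24 mice of the 3 groups, 43 with the share of reads outside genes as covariate, 45 with that covariate and no L-NAME replicate 2, and 142 at an adjusted p below 0.01; leaving out 1 library gave 322 (L-NAME replicate 2) to 647 (L-NAME replicate 3), with 358 without ponatinib replicate 1, 364 without L-NAME replicate 6 and 359 without L-NAME replicate 8. The 1688 genes between L-NAME and vehicle became, in the order of the voom, weighted, covariate, reduced covariate and stricter settings, 2561, 3737, 258, 210 and 811, and 1302 to 1799 without 1 library. The 396 genes of both comparisons became 692, 1209, 15, 13 and 98, 765 with the 24 mice, and 226 (without L-NAME replicate 2) to 477 (L-NAME replicate 3), with 244 without ponatinib replicate 1, 250 without L-NAME replicate 6 and 239 without L-NAME replicate 8. At an unadjusted p below 0.01 the 1146 genes became 1983 with no filter on low counts, 2143 with weights, 562 and 555 with the covariate and its reduced form, and 416 at p below 0.001 (956 to 1237 without 1 library). The 1997 between L-NAME and vehicle became 3510, 886, 853 and 970 (1733 to 2069), and the 736 in both 1331, 254, 250 and 264 (600 to 827). The covariate moves with the groups, and fewer calls with it cannot be told apart from an effect of L-NAME on that share. The cause of the other changes was not tested. The counts of limma voom without weights (1056, 2561 and 692) are not relied on, because in simulated data it called many unchanged genes of low count. DESeq2 called 810 genes, its size factors in edgeR 548, a filter of 1 CPM 568, no filter 424, the length trend removed 496, and thinning L-NAME replicate 2 gave 552. The share of reads outside genes was 2.46 percentage points apart (-2.46, ponatinib minus L-NAME) and -2.77 to -1.64 without 1 library. Of 125 named genes called, 82 were called without each of the 24 libraries in turn. No paired analysis was possible because the replicate numbers only follow accession order.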

Other observations

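Several single genes of other processes were also higher with ponatinib than with L-NAME. Masp1, a protease of the lectin pathway of complement, gave 1.16 on the log2 scale (adjusted p = 0.00785), Bhlhe40, a repressor of the circadian clock, 1.04 (adjusted p = 0.008), and Glul, glutamine synthetase of the hepatocytes around the central vein, 0.52 (adjusted p = 0.00675). Plpp1, a lipid phosphatase, was lower (-1.12, adjusted p = 0.00763). Ponatinib against vehicle gave -0.97 for Plpp1 (edgeR, unadjusted p = 0.00035), which was not called at an adjusted p below 0.05. Of 31 collagen and matrix genes 16 were lower in ponatinib against vehicle at an unadjusted p below 0.01, where 1.73% of all genes were, and 3 at an adjusted p below 0.05 (edgeR), with a median of -1.05. Against L-NAME 1 was called (Mmp12, macrophage elastase, lower), a share near the 1.49% of all genes that fell, and the median was -0.57. Mmp12 was not called without ponatinib replicate 1, 3, 4, 6, 7 or 8 or L-NAME replicate 2, 4 or 7 (adjusted p up to 0.0825). Of 22 chaperones of the endoplasmic reticulum, 11 were lower with L-NAME than with vehicle (6.24% of all genes were), a count of 3 with the covariate. In ponatinib against vehicle 13 had an unadjusted p below 0.01, all lower (1.73% of all genes were), and 1 an adjusted p below 0.05 (edgeR). Between ponatinib and L-NAME 1 was called (Derl3, lower, adjusted p = 0.043), where 1.49% of all genes fell. Derl3 was not called without ponatinib replicate 1, 2, 3, 6, 7 or 8 or L-NAME replicate 1, 2, 3 or 6 (adjusted p up to 0.111).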
